A study of Homo sapiens with 4 samples.

Results

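Cytosolic ribosomal proteins are the proteins of the small and the large subunit of the ribosome in the cytoplasm. Their genes were taken by symbol. Protein-coding genes named RPS or RPL with a number, together with RPSA, RPLP0, RPLP1 and RPLP2 and without RPS27L, gave 85 genes. Of these, 84 were among the 23459 genes in the files, 32 of the small subunit (RPS genes and RPSA) and 52 of the large subunit (RPL genes).

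The cells were hTERT RPE-1, an established human cell line with a wild type genotype that came from retinal pigment epithelium and carries telomerase. All 4 libraries came from cells starved of serum for 48 h in medium with 0.1% FBS and then exposed to 200 μM merbarone, a drug that inhibits the catalytic cycle of type II DNA topoisomerases. The groups were 4 h of merbarone (2 replicates) and 8 h of merbarone (2 replicates). Untreated cells were not analysed here, so time of exposure and time in low serum cannot be told apart. These are bulk samples of 1 cell line, in which fewer cells and less RNA per cell cannot be told apart.

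Most ribosomal proteins have a single place in the ribosome, and a cell needs its subunits in matched amounts. The mRNAs of nearly all of them are TOP mRNAs. They begin with a C and a run of pyrimidines, through which mTORC1 and the binding protein LARP1 control their translation and stability as a group. Cells withdrawn from the cell cycle usually make fewer ribosomes, and free RPL5 and RPL11 bind MDM2 and can thereby raise p53.

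The libraries held between 8064450 and 10324697 counts. A gene was tested if its counts per 1000000 counts of the library (CPM) were above 1 in at least 2 libraries, and 12559 genes passed. Replicates were separate libraries, since the chi-square statistic between them was 3.06 per degree of freedom at 4 h and 4.45 at 8 h, where read sampling alone gives about 1. The markers of the retinal pigment epithelium were mostly low. Of 9 markers, RPE65, RLBP1, BEST1, TTR and TYR did not pass the filter, TYR was at 0 in each library, and MITF, OTX2, PMEL and SERPINF1 passed. None of the 4 was called different between the times in the edgeR test. Of the epithelial markers, KRT18 was lower at 8 h (log2FC −0.51, where log2FC is the log2 fold change at 8 h against 4 h), KRT8 was not called and CDH1 had at most 1 count. Of the mesenchymal markers, VIM and FN1 were higher (log2FC 0.36 for each) and CDH2 was not called. The part of such shifts in the results on ribosomal proteins was not tested. The blood cell marker PTPRC did not pass the filter.

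In replicates 1 and 2 of 4 h, 1.75% and 1.88% of all counts fell on ribosomal protein genes, and in those of 8 h 2.18% and 2.03%. Both 8 h libraries were above both 4 h libraries. Small subunit genes held 0.663% and 0.726% at 4 h against 0.824% and 0.734% at 8 h. Large subunit genes held 1.08% and 1.15% at 4 h against 1.36% and 1.29% at 8 h.

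Of the 84 genes, 77 passed the filter, 29 of the small and 48 of the large subunit. The 7 others were RPL3L, RPL10L, RPS4Y1 and RPS4Y2, which had no count in any library, and RPL26L1, RPL39 and RPS10, which had few. Just outside the filter, RPL39 had 6 and 13 counts at 4 h and 7 and 3 at 8 h. Just inside it, RPL7 had 14 and 8 counts at 4 h and 9 and 15 at 8 h, and RPS27 had 7 and 13 at 4 h and 14 and 12 at 8 h. Over the genes that passed, the mean count per library ran from 11.5 to 11844, with a median of 1232, and 64 genes had a mean of at least 100.

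Ribosomal protein genes were called higher at 8 h more often than lower, and mostly by small amounts. With edgeR's quasi-likelihood test and a Benjamini-Hochberg adjusted p below 0.05 over all 12559 genes, 35 of the 77 were called higher at 8 h (45.5%), where 19.9% of all genes tested were called higher. Only 5 were called lower (6.49%), where 18.8% of all genes tested were called lower, and 37 were not called. The rises ran from 1.16-fold to 2.22-fold, and 13 of the 35 exceeded a log2FC of 0.5. The median log2FC of the 77 genes was 0.24, with quartiles of 0.05 and 0.44, against a median of 0.00 and quartiles of −0.31 and 0.26 over all genes tested. Only RPS15 also exceeded an absolute log2FC of 1, as 5.33% of all genes tested did. Both 8 h libraries lay above both 4 h libraries for 47 genes (61.0%) and below for 7 (9.09%), where the shares over all genes were 34.8% and 34.9%. The 35 higher and 5 lower genes were all without overlap between the times. The calls rest on the same 4 libraries, so this is not separate support for them.

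The counts of calls depended on single libraries. Those over all genes tested also moved between these fits, not always in the same direction. Without replicate 1 of 4 h, 23 genes were called higher, all of them among the 35. The number called lower was 2 without replicate 2 of 4 h, 9 without replicate 1 of 8 h and 3 without replicate 2 of 8 h. The 77 genes were also more abundant than most, with a median log2-CPM of 6.80 in replicate 1 of 4 h, against 4.95 over all genes tested. Over all genes tested, mean log2-CPM correlated with log2FC (Pearson r = 0.23). After cyclic loess normalization, which removes a trend with abundance, the median log2FC of the 77 was 0.15 and 25 genes were higher. Of all 12559 genes tested, 2259 were then higher, against 2500 in the edgeR test. With library size alone the median was 0.13, where that of all genes was −0.11. The part of abundance in the rises was not tested further. All 15 fits drew on the same 4 libraries, and the share of all genes tested called in every fit was not worked out. Across the 15 fits, 21 genes were called higher in every one, and RPL22L1 was called lower in every one.

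**Figure D1:**
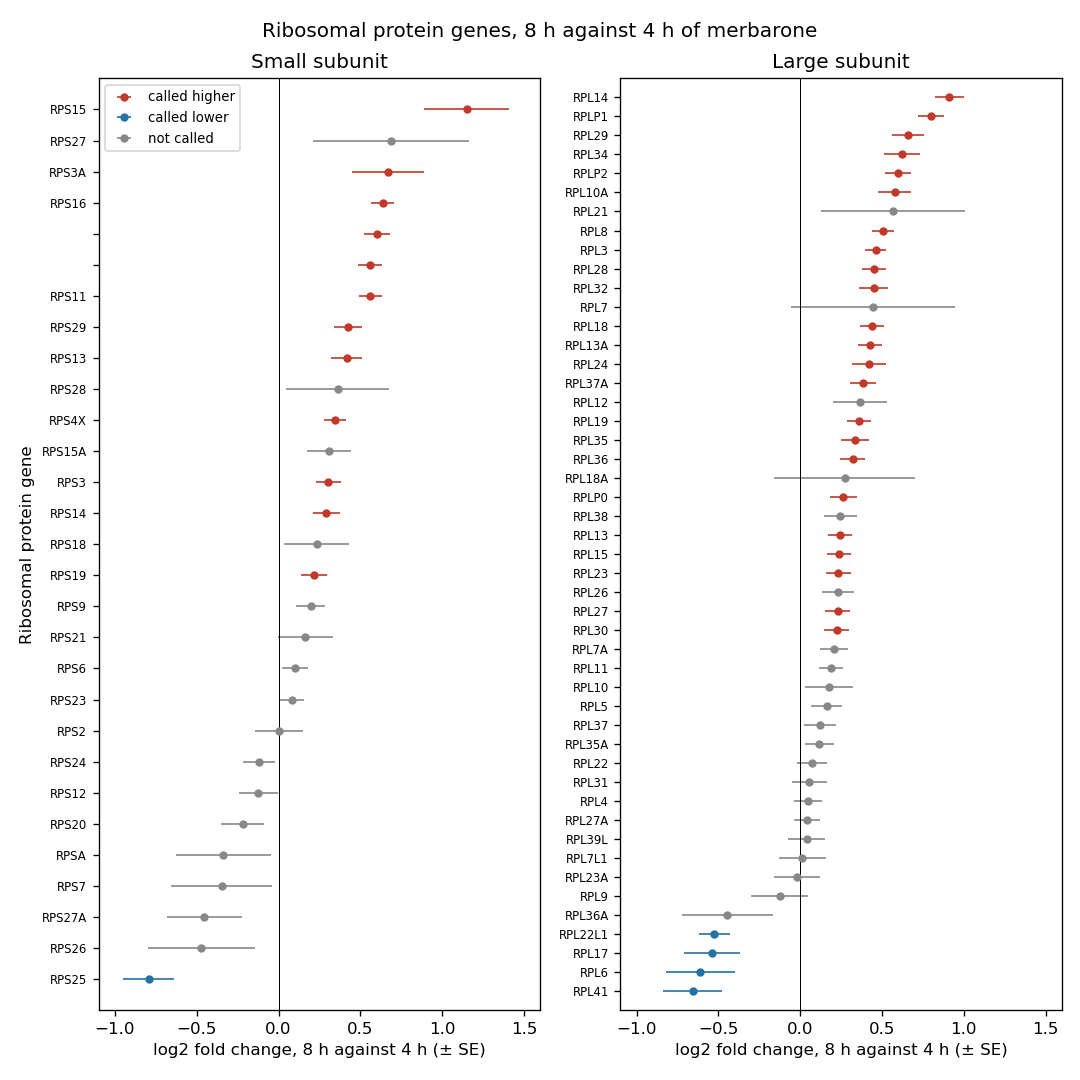
Log2 fold change at 8 h against 4 h (x axis) with its standard error for each ribosomal protein gene that passed the filter (y axis, not every gene labelled), 29 of the small subunit on the left and 48 of the large subunit on the right. Red points were called higher (12 and 23), blue points lower (1 and 4) and grey points were not called.

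The subunits were compared next, since both are needed in equal numbers. Of 29 small subunit genes, 12 were called higher (41.4%) and 1 lower, and of 48 large subunit genes, 23 were called higher (47.9%) and 4 lower. The median log2FC was 0.23 for the small and 0.24 for the large subunit, a difference of −0.006. Without replicate 1 of 8 h, the small subunit median was 0.15 and the difference −0.03. The quartiles were −0.12 and 0.42 for the small subunit and 0.07 and 0.44 for the large subunit, so that small subunit genes reached further down. Within each library, the mean log2-CPM of small subunit genes minus that of large subunit genes came to −0.70 and −0.61 at 4 h, against −0.64 and −0.75 at 8 h. These means overlapped between the times. The same difference between medians was −0.955 and −0.962 at 4 h, against −0.965 and −1.224 at 8 h, and small subunit genes held 38.0% and 38.7% of the summed CPM of ribosomal protein genes at 4 h, against 37.7% and 36.3% at 8 h. On both of these measures the 8 h libraries lay below the 4 h libraries, by little for replicate 1 of 8 h and by more for replicate 2. Such values compare the times and not the levels of the subunits, whose genes differ in the share of reads with a single genomic position (below). With 2 libraries against 2, an exact permutation test cannot give a p below 0.333, and no test of the subunit difference was made.

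**Figure D2:**
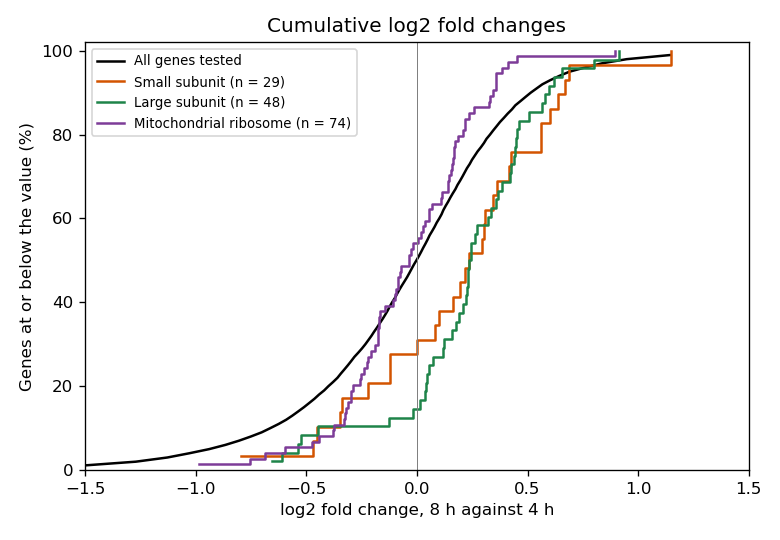
Share of genes (y axis, percent) at or below each log2 fold change at 8 h against 4 h (x axis) for small subunit, large subunit and mitochondrial ribosomal protein genes, with percentiles 1 to 99 of all genes tested in black. The curves of both cytosolic subunits lie to the right of all genes over most of their range, with medians of 0.23 and 0.24, while the mitochondrial curve has a median of −0.04.

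In the small subunit, large rises were those of RPS15, RPS3A and RPS16. RPS15 (chromosome 19, 1438357 to 1440494, plus strand, hg19), a protein near the decoding site, had TMM-normalized CPM of 3.28 and 3.78 at 4 h and 6.40 and 9.46 at 8 h. Both 8 h libraries were above both 4 h libraries (log2FC 1.15, standard error 0.26, edgeR adjusted p = 0.00173). It rested on 35 and 40 counts at 4 h and 60 and 73 at 8 h. Its share of read starts with a single genomic position, described below, was 0%, so the source of these counts is uncertain. Without replicate 2 of 8 h the log2FC of RPS15 was 0.86 and thus under 1.

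RPS16 (chromosome 19, 39923777 to 39926589, minus strand), a protein of the head of the small subunit, had 376 and 352 CPM at 4 h and 578 and 554 at 8 h. Replicates lay close together and the times far apart (log2FC 0.64, standard error 0.07, edgeR adjusted p = 1.51e-06).

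RPS3A had 7.68 and 6.81 CPM at 4 h and 13.8 and 9.07 at 8 h (log2FC 0.67, edgeR adjusted p = 0.0204). Its call was lost without replicate 1 of 4 h (adjusted p = 0.0695), replicate 2 of 4 h (0.148) or replicate 1 of 8 h (0.335, log2FC 0.32), and with DESeq2 (0.0974).

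RPS25 (chromosome 11, 118886422 to 118889401, minus strand), a protein that many viral and some cellular internal ribosome entry sites require, was the only small subunit gene called lower. It had 97.3 and 159 CPM at 4 h and 83.6 and 63.6 at 8 h, so the 4 h replicates differed more than the nearest libraries of different times did (log2FC −0.79, standard error 0.16, edgeR adjusted p = 0.000568). The log2FC was −0.40 without replicate 2 of 4 h, and the call was lost with DESeq2 (adjusted p = 0.128).

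In the large subunit, the largest rises were those of RPL14, RPLP1, RPL29 and RPL34. RPL14 (chromosome 3, 40498783 to 40510078, plus strand), a protein of the solvent side of the large subunit, had 111 and 93.9 CPM at 4 h and 199 and 187 at 8 h. It was 1.88-fold higher at 8 h (log2FC 0.91, standard error 0.09, edgeR adjusted p = 2.25e-07). RPL29 had 49.2 and 51.2 CPM at 4 h and 75.3 and 83.2 at 8 h (log2FC 0.66, edgeR adjusted p = 2.94e-05). RPL34 had 49.3 and 43.2 CPM at 4 h and 77.8 and 64.3 at 8 h (log2FC 0.62, edgeR adjusted p = 0.000192). For each of these genes both 8 h libraries were above both 4 h libraries.

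The stalk is the part of the large subunit that recruits translation factors, with RPLP0 as its base, RPLP1 and RPLP2 as paired acidic proteins and RPL12 beside them. All 4 genes had both 8 h libraries above both 4 h libraries, as 34.8% of all genes tested did. Of the 4, 3 were called higher, where 19.9% of all genes tested were. RPLP1 (chromosome 15, 69745153 to 69748544, plus strand) had 552 and 618 CPM at 4 h and 938 and 1100 at 8 h, a 1.74-fold rise (log2FC 0.80, standard error 0.08, edgeR adjusted p = 3.52e-07). RPLP2 (chromosome 11, 809965 to 812880, plus strand) had 206 and 198 CPM at 4 h and 288 and 324 at 8 h, a 1.51-fold rise (log2FC 0.60, standard error 0.08, edgeR adjusted p = 9.41e-06).

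RPLP0 was called higher with a log2FC below those of RPLP1 and RPLP2, a difference that was not tested. It had 156 and 175 CPM at 4 h and 206 and 191 at 8 h (log2FC 0.26, standard error 0.08, edgeR adjusted p = 0.0171). Its call was lost with library size alone (adjusted p = 0.146), with cyclic loess (0.207), without replicate 1 of 4 h (0.275, log2FC 0.17) and without replicate 1 of 8 h (0.0599). RPL12 was not called (log2FC 0.37, edgeR adjusted p = 0.0906). The share of read starts with a single genomic position, described below, was 72.5% for RPLP1 and 25.5% for RPLP2. It was 3.69% for RPLP0 and 0.18% for RPL12, so the source of the RPLP0 and RPL12 counts is uncertain.

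The 4 large subunit genes called lower were RPL41, RPL6, RPL17 and RPL22L1. RPL22L1 (chromosome 3, 170582664 to 170587997, minus strand), a paralog of RPL22, had 93.6 and 101 CPM at 4 h and 71.8 and 63.4 at 8 h. It fell to 0.695 of its 4 h level (log2FC −0.52, standard error 0.09, edgeR adjusted p = 0.000209). RPL22 itself, an RNA-binding protein that is known to repress RPL22L1, had 155 and 142 CPM at 4 h and 170 and 142 at 8 h, and its libraries overlapped (log2FC 0.07, standard error 0.09, edgeR adjusted p = 0.559). The ratio of RPL22L1 to RPL22 within a library came to 0.603 and 0.713 at 4 h, against 0.421 and 0.447 at 8 h. It compares the times and not the levels of the genes, which differ in length.

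RPL41, which encodes the smallest ribosomal protein, had 15.7 and 20.7 CPM at 4 h and 12.4 and 10.6 at 8 h (log2FC −0.66, edgeR adjusted p = 0.00709), and its call was lost without replicate 2 of 4 h (adjusted p = 0.169, log2FC −0.44). RPL6, a protein of the large subunit surface, had 12.7 and 13.3 CPM at 4 h and 10.3 and 6.48 at 8 h (log2FC −0.61, edgeR adjusted p = 0.0265). Its call was lost without replicate 1 of 4 h (adjusted p = 0.0873), replicate 2 of 4 h (0.135) or replicate 2 of 8 h (0.235, log2FC −0.33), with DESeq2 (0.105) and with cyclic loess (0.0699), and its log2FC was −1.01 without replicate 1 of 8 h. RPL17, at the exit of the peptide tunnel, had 24.99 and 31.8 CPM at 4 h and 23.5 and 15.2 at 8 h (log2FC −0.54, edgeR adjusted p = 0.0182).

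RPL17 shares its locus with a listed readthrough gene, so its counts are uncertain. Its call was lost without replicate 2 of 4 h (adjusted p = 0.25, log2FC −0.36) or replicate 2 of 8 h (0.171, log2FC −0.27) and with DESeq2 (0.0586), and its log2FC was −0.90 without replicate 1 of 8 h. In all 5 genes called lower, replicate 2 of 8 h was the lowest library. The plot of levels by library shows this beside the genes that rose.

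**Figure D3:**
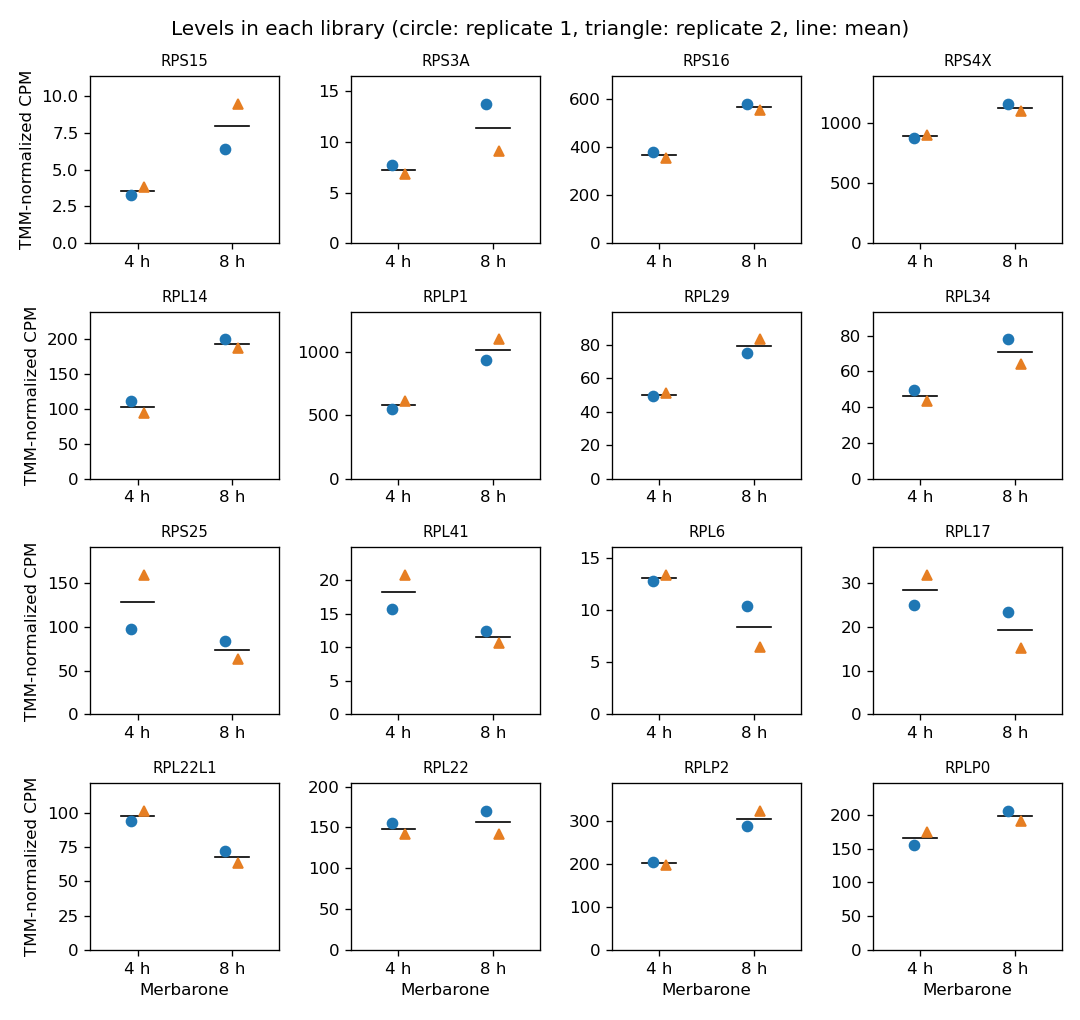
TMM-normalized CPM (y axis, from 0) at 4 h and 8 h of merbarone (x axis) for 16 ribosomal protein genes, with a circle for replicate 1, a triangle for replicate 2 and a line for the mean. The times separate in the upper 8 genes, RPS25 has 4 h replicates at 97.3 and 159, and RPL22 overlaps between the times while RPL22L1 does not.

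The start sites of these genes are shown because the pyrimidine run at the start defines TOP mRNAs. Each line gives 30 bases of the RefSeq sequence on GRCh38.p14, on the strand of the gene, with the position of the window, and the annotated start is the base after the first 10. Capitals mark the C and T bases that run on from the start. RPLP0, RPLP1, RPLP2, RPL14 and RPS16 rose, RPL22L1, RPS25 and RPL41 fell, and RPL22 was not called.
RPLP0 (chr12:120201092-120201121, minus strand): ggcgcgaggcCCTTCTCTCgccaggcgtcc
RPLP1 (chr15:69452808-69452837, plus strand): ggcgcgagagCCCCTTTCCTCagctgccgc
RPLP2 (chr11:809957-809986, plus strand): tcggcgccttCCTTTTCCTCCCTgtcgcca
RPL14 (chr3:40457329-40457358, plus strand): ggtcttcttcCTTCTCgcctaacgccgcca
RPS16 (chr19:39435930-39435959, minus strand): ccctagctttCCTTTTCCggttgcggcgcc
RPL22L1 (chr3:170870176-170870205, minus strand): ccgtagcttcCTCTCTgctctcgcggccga
RPL22 (chr1:6199576-6199605, minus strand): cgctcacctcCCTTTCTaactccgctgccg
RPS25 (chr11:119018324-119018353, minus strand): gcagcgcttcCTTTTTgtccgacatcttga
RPL41 (chr12:56116623-56116652, plus strand): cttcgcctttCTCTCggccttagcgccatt

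The 9 windows shown are all of genes whose start is C and at least 4 further pyrimidines, some that rose and some that fell. The same pattern, a C at the annotated start followed directly by at least 4 bases that are C or T, on the strand of the gene, was present at a start of 48 of the 68 genes with an entry (70.6%), against 6.24% of the 15843 protein-coding genes with an entry. It was present in 19 of 26 small subunit genes (73.1%) and 29 of 42 large subunit genes (69.0%). RPS15, RPL3 and RPS4X, which rose, and RPL6 and RPL17, which were called lower, were among the genes without it at any annotated start. Of the genes tested, 45 with the pattern had a median log2FC of 0.24 (20 higher, 3 lower) and 17 without it also 0.24 (9 higher, 2 lower). An annotated start is not a measured one, and a match is a description.

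The paralog pairs were described as a group. Of the paralogs, RPL3L, RPL10L and the Y-linked RPS4Y1 and RPS4Y2 were at 0 counts. RPL26L1 had 3 and 0 counts at 4 h and 10 and 4 at 8 h. A count of 0 allows up to 3 counts in a library. RPL3, which lies near the peptidyl transferase centre, rose from 936 and 973 CPM to 1328 and 1299 (log2FC 0.46, standard error 0.07, edgeR adjusted p = 2.29e-05), and its log2FC was 0.29 with cyclic loess. RPS4X, the X-linked copy, rose from 881 and 902 CPM to 1164 and 1100 (log2FC 0.34, standard error 0.07, edgeR adjusted p = 0.000489), and its log2FC was 0.18 with cyclic loess. RPL7L1 (log2FC 0.01) and RPL39L (0.04) were not called and overlapped between the times. Neither were RPL10 (0.18), RPL26 (0.23), RPL7 (0.44), RPS27 (0.69) and RPL36A (−0.45) called, with edgeR adjusted p between 0.0718 and 0.511. Counts of such pairs are uncertain where the copies are alike.

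RPL5 and RPL11, which form the 5S particle and bind MDM2, were not called. RPL11 had 544 and 577 CPM at 4 h and 676 and 602 at 8 h (log2FC 0.19, standard error 0.07, edgeR adjusted p = 0.0515). Both 8 h libraries were above both 4 h libraries. Its adjusted p lay between 0.00229, without replicate 2 of 8 h (log2FC 0.27), and 0.776, with cyclic loess (log2FC 0.03), and was 0.0446 in limma-voom. RPL5 had 226 and 212 CPM at 4 h and 274 and 215 at 8 h, and its libraries overlapped (log2FC 0.16, edgeR adjusted p = 0.187). Without replicate 2 of 8 h it was called higher (log2FC 0.32, adjusted p = 0.00114), and without replicate 1 of 8 h its log2FC was −0.03. RPL23, which also binds MDM2, was called higher (log2FC 0.23, edgeR adjusted p = 0.0214), but in 10 of the 15 fits only. Its call was lost with library size alone (adjusted p = 0.205), with cyclic loess (0.408, log2FC 0.08) and without replicate 1 of 4 h (0.100), replicate 2 of 4 h (0.178) or replicate 1 of 8 h (0.138, log2FC 0.15).

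By place in the ribosome, 7 genes around the peptide exit tunnel were tested (RPL39 did not pass). Of these, RPL19 (0.36) and RPL35 (0.33) were higher, RPL17 (−0.54) was lower and RPL4, RPL23A, RPL26 and RPL31 were not called, and the median log2FC was 0.06. At the mRNA entry and decoding site, RPS3 (0.30) and RPS15 (1.15) were higher with FAU, a gene outside the rule that encodes RPS30, and RPS2 (0.00) and RPS23 (0.08) were not called. At the mRNA exit, RPS14 (0.29) was among the genes called higher and RPS21 (0.16), RPS26 (−0.47), RPS28 (0.36) and RPSA (−0.34) were not called. Of 17 tested genes that are mutated in Diamond-Blackfan anaemia, an inherited failure of red cell production, 6 were higher (35.3%) and 0 lower in the edgeR test, with a median of 0.23, where 45.5% of all ribosomal protein genes and 19.9% of all genes tested were higher. Without replicate 1 of 4 h and with cyclic loess, RPL35 and RPS3 were not called, and RPS14 was called in 10 of the 15 fits, not with library size alone or cyclic loess nor without replicate 1 of 4 h, replicate 2 of 4 h or replicate 1 of 8 h. These groups were not tested against each other.

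Genes that share features outside the rule were compared with no test, since the features were chosen after the values were seen. Transcript GC content, taken from the canonical transcript, correlated with log2FC over the 77 genes (Pearson r = 0.35, Spearman rho = 0.33), and over 12294 genes tested r was 0.14. All genes here share the same 4 libraries. In the third with the highest GC content (above 51.3%), all 26 genes had a log2FC above 0, with a median of 0.36. Of all 12559 genes tested, 6250 had a log2FC above 0. In the edgeR test 17 of the 26 were higher (65.4%) and 0 lower, where 19.9% and 18.8% of all genes tested were. In the third with the lowest (up to 45.5%), the median was 0.14, with 9 higher (34.6%) and 2 lower (7.69%). The 12 genes on chromosome 19 were all part of the third with the highest GC content, with a lowest value of 53.6%. All had a log2FC above 0, with a median of 0.43 and 9 higher (75%). Their median GC content was 57.0%, against 46.7% for the genes on other chromosomes, whose median log2FC was 0.23. Shares over all genes of high GC content or on chromosome 19 were not worked out.

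GC content also moved with the difference between replicates. At 8 h, 61 of the 77 genes (79.2%) were lower in replicate 2 than in replicate 1, with a median log2 difference of −0.13, against 50.5% of all genes tested. This difference correlated with GC content over the 77 genes (r = 0.42) and with their log2FC (r = 0.59). At 4 h, 21 of the 77 were lower in replicate 2 than in replicate 1, and the correlation with GC content was 0.14. Over all genes tested, the difference between replicates correlated with GC content at both times (r = 0.26 at 4 h and 0.24 at 8 h), and that at 8 h correlated with log2FC with r = 0.08. The GC trend of each library over all genes was then removed. In that fit 41 genes were higher, including all of the 35, and the same 5 were lower. The median log2FC was 0.26. Of all genes tested, 2835 were higher and 2600 lower in it. Over the 77 genes, GC content still correlated with the corrected log2FC (r = 0.26), where over all genes tested r was 0.004. The part of GC content and of replicate 2 of 8 h in the rises was not tested further.

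**Figure D4:**
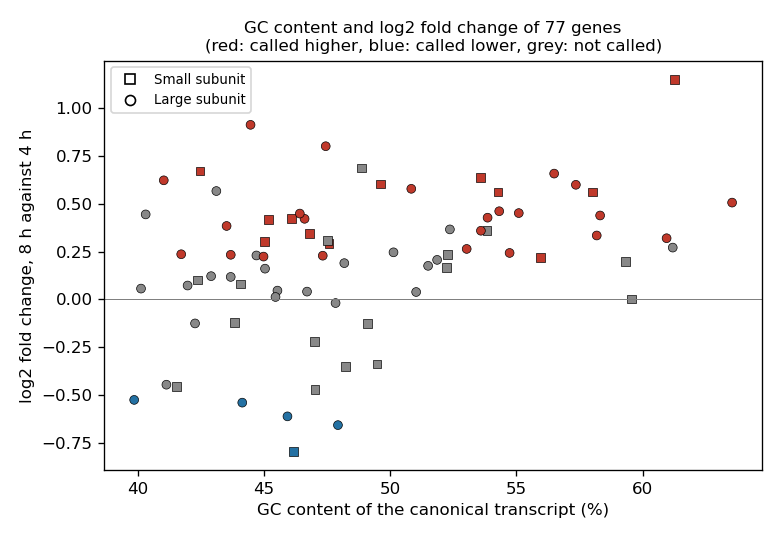
GC content of the canonical transcript in percent (x axis) and log2 fold change at 8 h against 4 h (y axis) of the 77 ribosomal protein genes, squares for the small and circles for the large subunit, red for genes called higher, blue for lower and grey for not called. All genes above a GC content of 51.3% lie above 0, and the 5 blue points reach up to 47.9%.

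Ribosomal protein genes have many processed copies in the genome, and only reads with a single position were kept. The RefSeq table names 1973 pseudogenes of 78 of the 84 genes, with a median of 14.5 per gene. For each gene, the share of 75-base read starts on the canonical transcript that lie inside an exon and match a single position of GRCh37, with up to 2 mismatches allowed, had a median of 30.8% and was below 5% for 22 genes. The median share was 14.7% for small and 35.4% for large subunit genes. Single genes had 89.0% (RPL22L1), 86.2% (RPL14), 4.40% (RPS25), 0.38% (RPS3A) and 0% (RPS15, RPL6 and RPL17). These shares and the GC content rest on canonical transcripts, that of RPL14 with 7136 bases. Whether those are the transcripts expressed here was not tested. Where the counts of genes with a share near 0% came from was not tested. The share correlated with the mean log2-CPM of the tested genes (Spearman rho = 0.52), so levels of different members are not compared here, and not with log2FC (rho = −0.01). Genes with a share of at least 25% had a median log2FC of 0.24 (22 higher and 2 lower of 43), and those under it 0.25 (13 higher and 3 lower of 34). The 28 tested genes with a snoRNA gene inside had a median log2FC of 0.23, and the 49 without one 0.25.

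Other genes of the ribosome and of TOP mRNA control were taken from fixed lists. Among ribosomal proteins outside the rule, RACK1 (log2FC 0.44), RPS27L (0.39), a p53 target, and FAU (0.34) were higher, and RPL36AL (0.17) was not called. Of 16 other TOP mRNAs, 11 were higher (68.8%) and 0 lower in the edgeR test, where 19.9% and 18.8% of all genes tested were. Their median log2FC was 0.37, with RACK1 counted in both lists and VIM also given above as a mesenchymal marker. Among them, EEF1G (0.63) and EEF2 (0.58) encode elongation factors, NPM1 (0.50) a nucleolar chaperone and EIF3F (0.46) an initiation factor subunit. EEF2 went from 4104 ± 213 to 6145 ± 589 CPM (SD, n = 2 each, edgeR across all genes). Without replicate 2 of 4 h, EIF3F and NPM1 were not called, nor was NPM1 without replicate 1 of 8 h, and FAU was not called without replicate 1 of 4 h or with cyclic loess. EEF1B2 (−0.25), EEF1A1 (0.11), EIF3E (0.06), HNRNPA1 (0.17) and NAP1L1 (−0.04) were not called.

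Of 20 regulators of TOP mRNAs and mTORC1, 5 were higher (25%) and 1 lower (5.00%), with a median log2FC of 0.14, and the share that was higher was near the 19.9% of all genes tested. EIF4EBP1, a translation inhibitor that mTORC1 phosphorylates, rose from 98.4 ± 0.04 to 190.2 ± 3.53 CPM (SD, n = 2 each; log2FC 0.95 in edgeR). EIF4EBP2 (−0.20) was the gene called lower, in 8 of the 15 fits. LARP1 (0.44), TSC1 (0.42) and SESN1 (0.38) were also higher. TSC1 and SESN1 restrain mTORC1, but TSC2 (0.12), SESN2 (0.15), SESN3 (0.31) and DDIT4 (−0.04) were not called. The calls of TSC1 and SESN1 were lost without replicate 2 of 4 h (highest adjusted p 0.0693 and 0.101). Of 12 chaperones and importers of ribosomal proteins, 2 were higher (16.7%) and 3 lower (25%), with a median of −0.08, near the shares of all genes tested (19.9% and 18.8%). HEATR3 (−0.60), which escorts RPL5 and RPL11, and the importer IPO9 (−0.50) and NAP1L4 (−0.42) were lower, and IPO7 (0.27) was higher. HEATR3 and IPO7 were each called in 11 of the 15 fits. Both lost the call with cyclic loess and without replicate 2 of 4 h, HEATR3 also with DESeq2 and without replicate 2 of 8 h, and IPO7 also with library size alone and without replicate 1 of 4 h. Of 74 mitochondrial ribosomal protein genes tested, 9 were higher (12.2%) and 13 lower (17.6%), with a median of −0.04, where the shares of all genes tested were 19.9% and 18.8%. The difference between the mitochondrial and cytosolic groups was not tested.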

How the data were processed

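RNA-Seq was performed on poly(A)-selected, stranded libraries. The authors quality filtered the reads, mapped them to hg19 with Bowtie 1.2.0, retained reads with 1 genomic position and deposited raw counts per NCBI Gene identifier; the counting tool, annotation and use of strand are not given in the sources used here. Ungapped, single-position mapping loses reads across splice junctions and from gene copies. deepTools 2.4.1 is also named in the processing notes.

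Symbols were taken from the RefSeq table (23308 of 23459 genes matched), and positions, transcripts and snoRNA genes from GENCODE on GRCh37. Genes with CPM above 1 in at least 2 libraries were normalized by TMM and tested with edgeR 4.0.16 (R 4.3.3) in a model with time only. log2-CPM used a prior count of 2. Limma 3.58.1 (limma-voom, the test of the study) and DESeq2 1.42.0 were alternatives. The tests were tried on simulated data. Named genes were, per subunit, the 4 largest rises and falls called without overlap, genes past a log2FC of 1, paralog pairs, stalk genes, RPL5 and RPL11, and up to 4 called genes of each other list. A few others were named beside them. Members, lists and tests were chosen with earlier results of these data known. The labels number the replicates 1 and 2 in both groups. As a check of pairing, the deviation of each library from the mean of its group was correlated between libraries with the same number (0.05), so the numbers were not taken as pairs. The study calls its replicates biological, and how the cultures were separated is not given in the sources used here, so p-values measure the spread between these libraries. A correction for GC content, a minimum mean count and a minimum share of single-position read starts were alternatives chosen after seeing the data. Results on some genes are not reported here.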

Additional observations from a re-analysis of the deposited data

How the results depend on the processing

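With 2 libraries per group, counts of called genes moved with single libraries, over all genes tested as well. Leaving out 1 library at a time, where the lone library is assumed to vary like the other group, gave 23 to 45 ribosomal protein genes higher and 2 to 9 lower, with 8 to 15 and 1 to 4 of the small subunit and 15 to 30 and 1 to 5 of the large subunit. Medians of log2FC were then 0.16 to 0.30, 0.15 to 0.30 for the small and 0.18 to 0.30 for the large subunit, and the small minus large difference was −0.03 to −0.0003. DESeq2 called 2 genes lower, 0 of the small and 2 of the large subunit. Of all 12559 genes tested it called 1503 lower, against 2367 in edgeR. With cyclic loess, 2 small subunit genes were lower and the large subunit median was 0.15, and with library size alone that median was 0.13. The fit with a replicate block called 41 genes higher and 6 lower, with 2 small subunit genes lower. Of all genes tested it called 2829 higher and 2664 lower. With an absolute log2FC above 1 required as well, 1 gene was higher, 1 of the small and 0 of the large subunit, and 0 were lower, 0 in either subunit. Among genes with at least 25% single-position read starts, 22 were higher and 2 lower, 7 and 0 of the small and 15 and 2 of the large subunit, which has fewer genes by construction. The causes of the other shifts were not tested. Of 376 values of the 27 named ribosomal protein genes under alternatives, 347 kept their side of the threshold, 18 lost the call, 11 gained it and 0 changed sign as a called value. The counts of RPS15, RPS3A and RPL6 were low, which limits the precision of their fold changes. Their share of single-position read starts was 0%, 0.38% and 0%, so the source of these counts is also uncertain.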
